A study of Mus musculus with 19 samples.

Results

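Hearts of mice without a working clock in their cardiomyocytes were compared with wild-type hearts after both genotypes had been fed a high fat diet. The comparison held 9 of the 19 hearts of the series, chosen by the genotype and diet in the labels: 5 from transgenic mice labelled CCM and 4 from wild-type (WT) mice. All 9 animals were FVB/N mice, fed the high fat diet over 16 weeks. Their hearts were taken at ZT 18, counted in hours from lights on, which falls in the dark, active phase of a mouse. The other 10 hearts came from 5 CCM and 5 WT mice of the same strain fed a normal diet over the same 16 weeks, again taken at ZT 18, and they gave the same contrast in other animals. Every heart was a separate animal on 1 bead array, and the labels number the animals across all groups. CCM mice are known to express a dominant-negative CLOCK protein from the alpha-myosin heavy chain promoter, which is active in cardiomyocytes. Their own Clock gene remains, and the clocks of the other cells of the heart are not targeted. Ages were not given in the sources used here.

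The circadian clock is a feedback loop of transcription factors. CLOCK and BMAL1 (gene Arntl) bind E-box DNA as a pair and switch on their own repressors, the Period, Cryptochrome and CIART proteins, together with output factors such as DBP and TEF, which in turn act through D-box DNA. In heart muscle the clock is known to time the use of fatty acids, glucose and amino acids, the turnover of triglyceride and the levels of ion channels. With 1 hour of the day measured, a shift in the phase or amplitude of a rhythm and a change in its mean cannot be told apart. In whole-heart RNA, fewer cells of a type and less RNA per cell cannot be told apart either.

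Values are normalized log2 signals, and each difference is CCM minus WT with its standard error from limma. Mean signal per array was 431.59 to 555.35 in the 5 CCM and 508.1 to 580.37 in the 4 WT hearts. It was lower in CCM by a margin that an exact two-sided permutation test over the 126 splits of the 9 arrays did not separate (p = 0.206, smallest possible 0.0159). Probes detected per array ran from 17117 to 18467 and did not separate the genotypes either (exact permutation p = 0.698). The arrays of CCM high fat replicates 1 and 2 had the lowest mean signals of their group (431.59 and 446.71). Correlations over genes were 0.982 to 0.993 within WT, 0.984 to 0.993 within CCM and 0.976 to 0.991 between the genotypes. All 8 cardiomyocyte markers were detected on every array, with WT means from 12.80 to 15.63 and a summed level of 17.90 to 17.99 in WT and 17.89 to 17.98 in CCM hearts. Of 5 measured smooth muscle markers, all 5 had lower means in CCM and 1 passed (median -0.42, and 0.07 on the normal diet). Their summed level was 13.82 to 14.35 in WT and 13.13 to 13.81 in CCM. The part of that shift in other results was not tested. The summed level of 4 atrial markers ran from 11.16 to 15.55 across the WT and from 13.70 to 14.72 across the CCM hearts. Of 6 adipocyte markers 3 were measured, all with lower means in CCM (median -0.58, and 0.69 on the normal diet) and none called. Their summed level was 8.38 to 10.05 in WT and 7.57 to 9.72 in CCM. The 3 measured mesothelial markers had a median of -0.43 (-0.07 on the normal diet), none called, and a summed level of 8.22 to 9.13 in WT and 7.65 to 8.81 in CCM. Of 3 skeletal muscle markers Acta1 alone was called, and their summed level was 14.78 to 15.10 in WT and 15.35 to 15.54 in CCM. Acta1 was the brightest of them (WT mean 14.46) and weighs most in these sums. The median difference of the 3 was 0.08, and 0.10 on the normal diet. Endothelial (8 measured), fibroblast (7), macrophage (7) and erythroid (5) markers held no called gene.

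The transgene separated the genotypes in every animal. A Clock probe read 8.17, 6.48, 7.98 and 6.60 in the WT and 15.27, 15.41, 15.20, 15.48 and 15.48 in the CCM hearts, a difference of 8.06 ± 0.38. The highest value on any array was 15.76, so the CCM hearts lay close to the top of the range. A further Clock probe, brighter in WT hearts, differed by 0.48 (group means 10.81 and 11.29), and the remaining one was detected on no array. A probe that the array names AmpR was detected on 0 of 4 WT and 5 of 5 CCM arrays and was at least 13.2-fold higher. Another, named AlkPhos, was detected on the same arrays and was at least 7.42-fold higher. Lower bounds of this kind hold on the background-corrected scale. Without background correction the log2 differences were 2.66 for AmpR and 2.13 for AlkPhos, below both bounds.

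Of 14752 genes tested, 288 (1.95%) differed between CCM and WT hearts on the high fat diet at an adjusted p under 0.05 (limma, Benjamini-Hochberg over all genes). Of these, 127 (0.861% of genes tested) were higher in CCM and 161 (1.09%) were lower. At least 2-fold changes were seen for 24 higher and 53 lower genes, and these 77 became 36 without background correction and 41 in the authors' normalized values. In all, 91 called genes changed by less than 1.5-fold. Of 79 called genes with more than 1 kept probe, 65 had all probes of the same sign and 14 had some probe of the other sign. The median size of a called difference was 0.71 log2, while the middle of all genes lay at -0.0053. In 276 of the 288 called genes the 9 animals fell into separate ranges by genotype, as they did in 5.33% of all genes tested. Leaving out each of the 19 animals in turn kept 159 of the calls throughout (63 higher and 96 lower). Such calls are described below as held. For each other gene the number of the 19 animals whose omission ended the call is given, with the highest adjusted p. Without the low-signal arrays of CCM high fat replicates 1 and 2 the number of calls was 172. A fit on the 9 high fat arrays alone called 216 genes, 193 of them among the 288. All 288 genes kept their direction both in the animals numbered under 20 and in those numbered over 20. These are the animals that gave the calls, and separate ranges by genotype fix the direction in any such split. The agreement is therefore no independent support. Just outside the threshold, 34 genes had an adjusted p between 0.05 and 0.06.

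**Figure D1:**
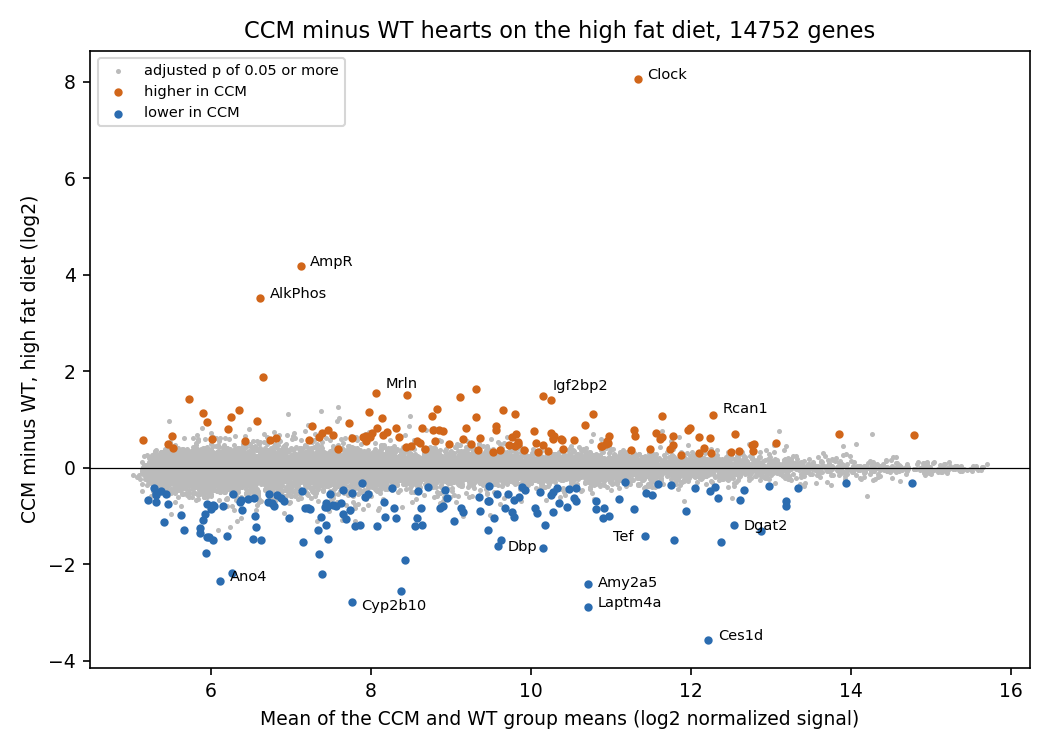
Difference between the CCM and WT high fat group means (log2, vertical axis) against the mean of those group means (log2 normalized signal, horizontal axis), 1 point per gene, with 127 genes called higher in orange, 161 called lower in blue and the rest in grey. Clock stands alone at 8.06, and the lowest point is Ces1d at -3.56.

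The same contrast was read in the 10 normal-diet hearts, which share no animal with the high fat comparison. On the normal diet 282 genes (1.91%) were called. In all, 186 genes were called on both diets, which is 64.6% of the high fat calls and 66.0% of the normal-diet calls. All 186 had the same direction. Of the 288 high fat calls, 287 had the same sign on the normal diet. The exception, D030022C03Rik, was lower by 0.68 ± 0.15 on the high fat diet and differed by 0.06 ± 0.14 on the normal diet. Its call ended on omission of CCM high fat replicate 1 or of WT high fat replicate 1 or 2 (adjusted p = 0.0517, 0.0702 and 0.0554). Among the 102 genes called on the high fat diet alone, the median size was 0.58 on the high fat and 0.33 on the normal diet. Not passing on the normal diet does not show a dependence on diet, so the difference between the contrasts was tested itself. It passed for no gene (0%, lowest adjusted p = 0.9998), while 400 genes had an unadjusted p under 0.05, 21 of them among the 288. Over 14752 genes, a threshold of 0.05 gives on average more than 400 without any true difference. The 288 were selected on the high fat contrast, which is part of the tested difference, so their 21 cannot be set against the 400. The called genes with the smallest unadjusted interaction p were 2210409D07Rik (0.00022), D030022C03Rik (0.0018), AlkPhos (0.0020), the tetraspanin Tspan9 (0.0084) and the mitochondrial topoisomerase Top1mt (0.012).

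**Figure D2:**
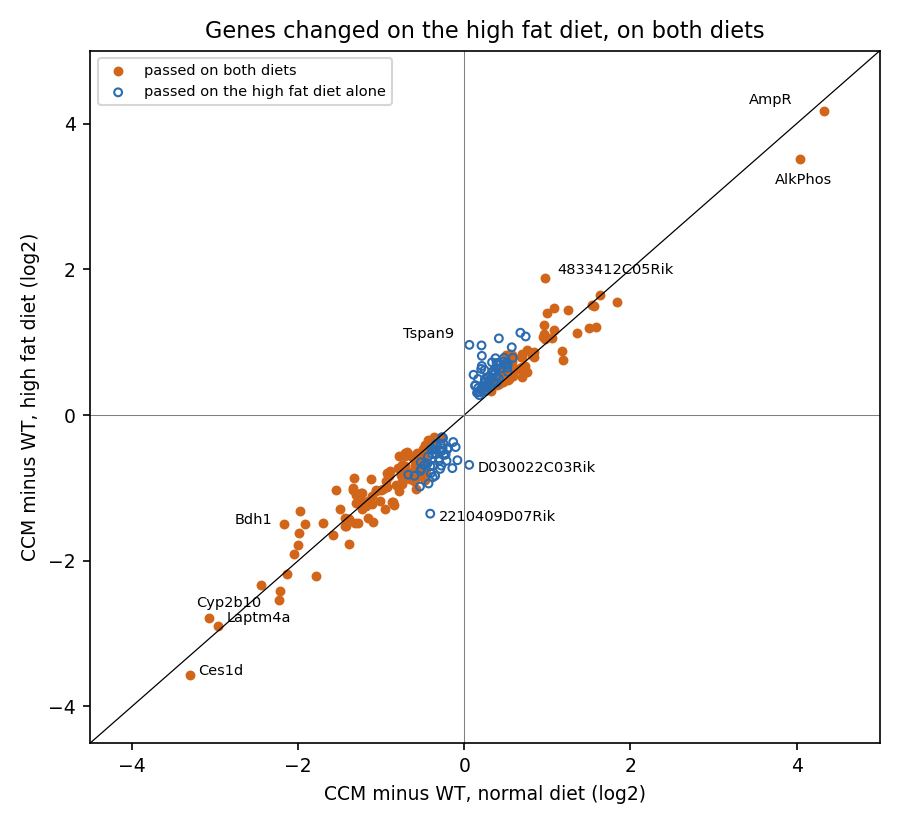
CCM minus WT on the high fat diet (log2, vertical) against the same contrast in other animals on the normal diet (log2, horizontal) for the genes called on the high fat diet, filled where both diets passed (186 genes) and open where the high fat diet alone did (102 genes). The filled points lie near the line of equality, with median sizes of 0.83 on the high fat and 0.75 on the normal diet. The open points, selected for passing on the high fat diet alone, had median sizes of 0.58 and 0.33. Clock (8.06 and 7.47) is beyond the axes.

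Within the core loop, 5 of 16 measured genes (31.2%, beside 1.95% of all genes) were called, 3 higher and 2 lower, and the median was -0.15. The share and the higher calls include Clock, at the probe given above for the transgene, so that call describes the construct. Besides Clock itself, Arntl read 8.64, 8.57, 8.55 and 8.34 in the WT and 8.94, 9.51, 9.16, 9.47 and 9.35 in the CCM hearts. All CCM hearts lay above all WT hearts, and the rise was 0.76 ± 0.17 (adjusted p = 0.0169). Omission of WT high fat replicate 4 (adjusted p = 0.0752) or of CCM high fat replicate 4 (adjusted p = 0.0502) ended its call. Ciart, which encodes a repressor of the CLOCK and BMAL1 pair, read 6.41, 6.26, 6.02 and 6.53 in WT and 5.17, 4.98, 4.97, 5.05 and 4.90 in CCM hearts. No CCM array detected it, so that it was at least 1.75-fold lower, and the call was held (adjusted p = 9.70e-06). That bound was not met without background correction (-0.65 log2) or in the authors' normalized values (-0.75).

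Among the nuclear receptors of the loop, Rorb rose by 0.60 ± 0.15 (adjusted p = 0.0340), with WT values of 5.60, 5.59, 6.08 and 5.57 and CCM values of 6.24, 6.11, 6.22, 6.69 and 6.30. That call was lost in 7 of 19 omissions (up to adjusted p = 0.128 without WT high fat replicate 4). Of the 11 members that missed the threshold, Cry2 differed by -0.65 ± 0.20 (adjusted p = 0.138) and Per3 by -0.53 ± 0.17 (adjusted p = 0.166), both repressors and both with separate ranges by genotype. Nr1d2, which encodes REV-ERB beta, differed by -0.87 ± 0.31 (adjusted p = 0.237) and Nr1d1, which encodes REV-ERB alpha, by 0.43 ± 0.14 (adjusted p = 0.181). The other members were Bhlhe41 (-0.45), Rora (-0.30), Per2 (-0.20), Arntl2 (0.12), Per1 (-0.09), Npas2 (-0.06) and Bhlhe40 (-0.06), with adjusted p from 0.526 to 0.979.

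Of 9 measured output genes of the clock, 4 (44.4%, beside 1.95% of all genes) fell and none rose, with a median of -0.52. Dbp, a D-box activator, read 10.23, 10.28, 10.35 and 10.75 in WT and 8.64, 8.76, 8.72, 8.93 and 8.85 in CCM hearts. The closest animals of the groups were further apart than any animals within a group, and Dbp fell 3.09-fold (-1.63 ± 0.16, adjusted p = 4.13e-06, held). Tef, a second D-box activator, read 11.93, 12.08, 12.07 and 12.47 in WT against 10.73, 10.73, 10.61, 10.84 and 10.69 in CCM hearts. It was 2.67-fold lower (-1.42 ± 0.12, adjusted p = 6.06e-07, held). A dimmer Tef probe showed -1.34 and the remaining one 0.16. Usp2, a clock-driven ubiquitin protease, fell by 0.82 ± 0.20 (adjusted p = 0.0411), with 12 of 19 omissions ending the call (up to adjusted p = 0.172 without WT high fat replicate 1). Lonrf3, a RING finger gene of the list, differed by -0.52 ± 0.15 (adjusted p = 0.104).

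Promoter sequences of the mouse (RefSeq, GRCm38.p6), spanning 250 bases before to 50 bases after each annotated gene start, were available for 9152 of the genes tested, including 94 called higher and 106 called lower. The E-box CACGTG, which reads the same on both strands, was in the promoters of 11.5% of all these genes, of 9 (9.57%) of the higher and of 14 (13.2%) of the lower genes. The D-box TTATGTAA, searched on both strands, was in 0.787% of all, in none of the 94 higher and in 4 (3.77%) of the 106 lower genes, which were Coq10b, Gzmm, Prlr and Ptgds. The core of the ROR site, AGGTCA on either strand, was in 14.7% of all, 16.0% of the higher and 13.2% of the lower genes. A match is a description of the letters in this window. The motifs were chosen after the calls were known. The stretches below show the E-box of the called clock genes Ciart and Tef and the D-boxes of 3 of the 4 genes that hold one, because the clock loop and its output factors act through these letters. Capitals mark the motif, and each stretch reads 5′ to 3′ on the strand of its gene.
Ciart, chr3:95882299-95882384, minus strand: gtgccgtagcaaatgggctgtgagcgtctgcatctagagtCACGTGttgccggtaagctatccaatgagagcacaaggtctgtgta
Tef, chr15:81802506-81802591, plus strand: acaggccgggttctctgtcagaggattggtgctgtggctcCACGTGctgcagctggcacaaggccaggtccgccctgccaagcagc
Coq10b, chr1:55052568-55052655, plus strand: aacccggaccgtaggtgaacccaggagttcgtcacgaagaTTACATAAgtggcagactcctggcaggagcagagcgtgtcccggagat
Ptgds, chr2:25469843-25469930, minus strand: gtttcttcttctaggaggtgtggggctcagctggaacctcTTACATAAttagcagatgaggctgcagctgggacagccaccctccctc
Prlr, chr15:10293401-10293460, plus strand: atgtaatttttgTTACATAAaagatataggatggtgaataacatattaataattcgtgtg

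All 3 D-box stretches show the motif as its reverse complement, TTACATAA. The promoter of Ciart holds 3 E-boxes, of which the stretch shows 1. Coq10b, which encodes a coenzyme Q-binding protein of mitochondria, read 10.71, 10.85, 10.81 and 10.66 in WT and 9.38, 9.94, 9.52, 9.54 and 9.53 in CCM hearts. It fell 2.26-fold (adjusted p = 7.01e-05, held), and a second Coq10b probe showed -0.48. Prlr, the prolactin receptor, read 8.10, 8.12, 8.01 and 7.88 in WT and 6.87, 6.52, 6.47, 7.37 and 7.02 in CCM hearts, a 2.26-fold fall (adjusted p = 0.000486, held). Gzmm, a serine protease of lymphocyte granules, fell by 1.20 ± 0.14 (adjusted p = 3.83e-05, held). Ptgds, which makes prostaglandin D2 and was among the brightest called genes, read 13.59, 13.85, 13.53 and 13.17 in WT and 12.45, 12.93, 12.16, 12.22 and 11.31 in CCM hearts. It fell by 1.32 ± 0.27 (adjusted p = 0.0113), and the omission of WT high fat replicate 2 ended the call (adjusted p = 0.0505). Coq10b, Prlr and Gzmm were singled out after their values were seen. On the normal diet these 4 genes differed by -1.24, -1.27, -0.86 and -1.98, and all 4 passed there too.

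**Figure D3:**
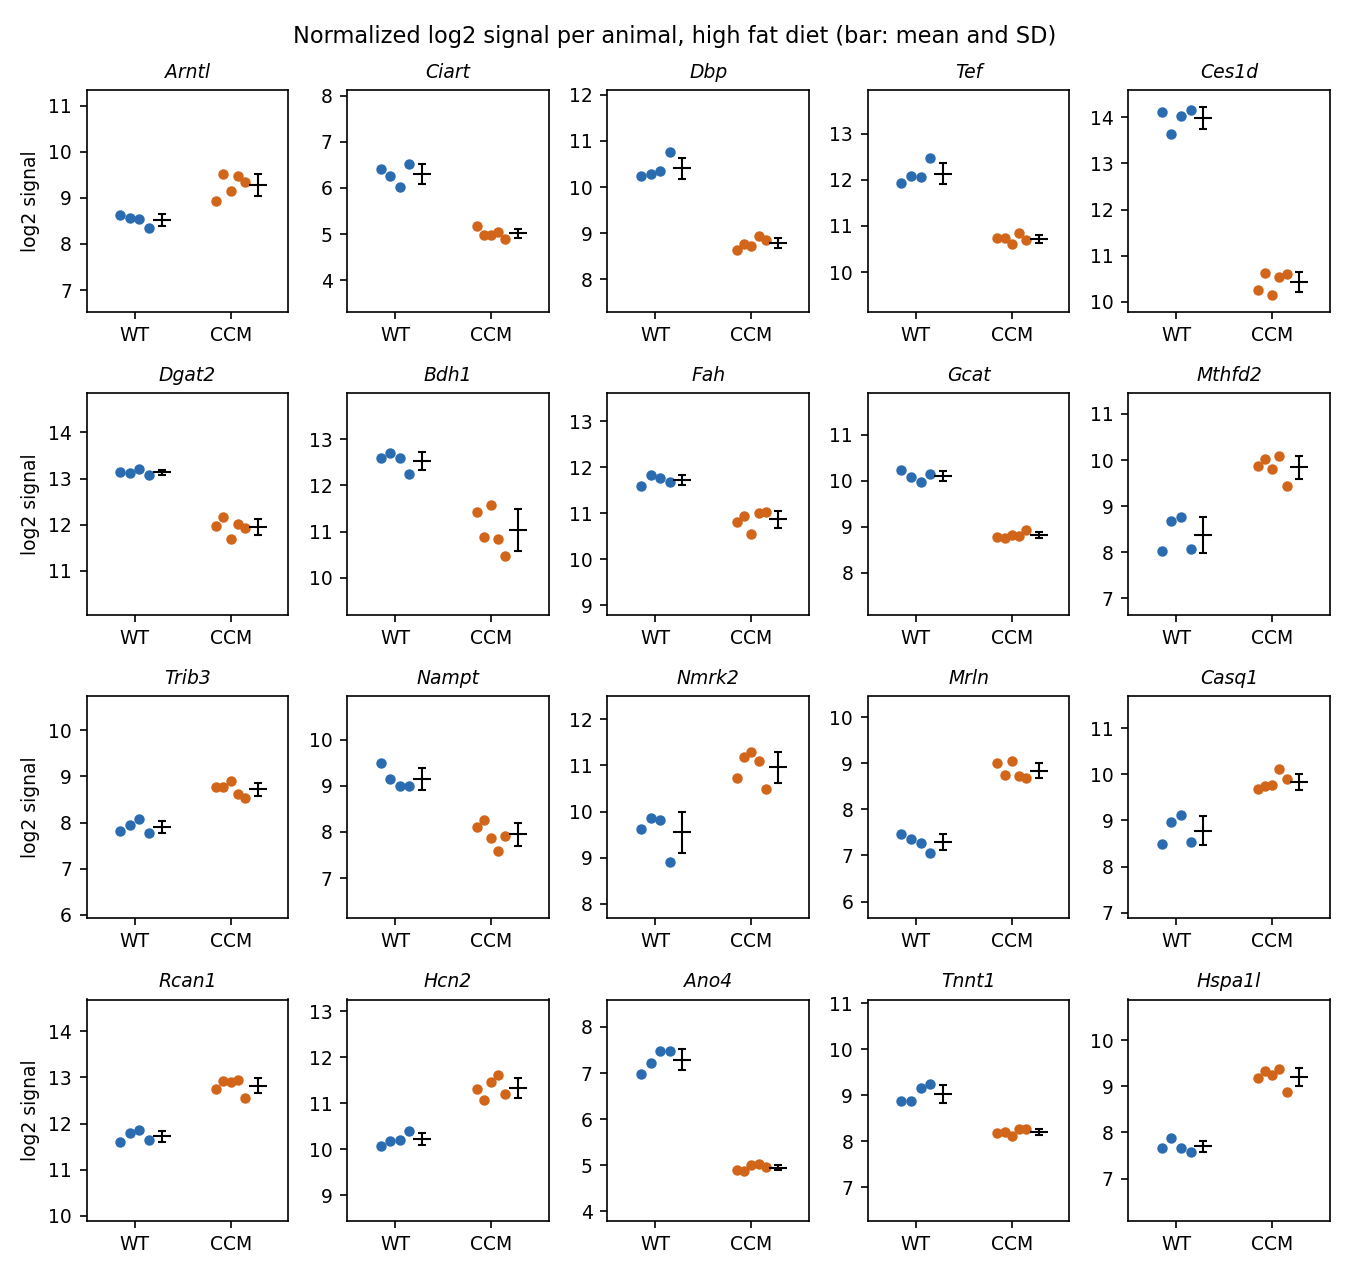
Normalized log2 signal of 20 genes in each of the 4 WT (blue) and 5 CCM (orange) high fat hearts, 1 point per animal, with the group mean and SD in black; every panel spans the same log2 range. In each panel the WT and CCM points fall into separate ranges. The 20 genes were picked from the called genes, of which 276 of 288 had separate ranges, beside 5.33% of all genes tested.

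The gene with the largest decrease of the comparison belonged to triglyceride hydrolysis, where 1 of 12 measured genes fell and 1 rose (16.7% called, beside 1.95% of all genes). Ces1d, a carboxylesterase that hydrolyses triglyceride, read 14.12, 13.65, 14.03 and 14.17 in WT and 10.25, 10.63, 10.14, 10.53 and 10.61 in CCM hearts. It was thus among the brightest called genes in WT hearts, and it was 11.8-fold lower in CCM (-3.56 ± 0.14, adjusted p = 5.01e-12, held). Dgat2, which joins the last fatty acid to diacylglycerol, read 13.14, 13.11, 13.21 and 13.08 in WT and 11.97, 12.16, 11.68, 12.01 and 11.92 in CCM hearts. It fell 2.28-fold (adjusted p = 6.06e-07, held) and was the single call among 13 measured triglyceride synthesis genes (7.69%, beside 1.95% of all genes, median 0.01). Pnpla3, a lipase and acyltransferase of the lipid droplet, moved the other way. It read 6.86, 8.13, 7.86 and 7.80 in WT and 8.23, 8.65, 8.29, 8.62 and 8.65 in CCM hearts, with WT high fat replicate 1 the lowest. The rise was 0.83 ± 0.19 (adjusted p = 0.0231), and omission of CCM high fat replicate 2, 4 or 5 ended the call (adjusted p = 0.0584 to 0.0595). Plin4, the single call of 11 lipid droplet coat genes (9.09%, beside 1.95% of all genes), fell by 0.45 ± 0.10 (adjusted p = 0.0201). It was lost in 5 of 19 omissions (up to adjusted p = 0.0915 without WT high fat replicate 1). The part of the adipocyte marker levels given above in these lipid results was not tested.

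Of 24 measured fatty acid and sterol synthesis genes, 3 (12.5%, beside 1.95% of all genes) fell and none rose (median -0.11). Mid1ip1, a protein that binds and activates acetyl-CoA carboxylase, read 10.77, 11.77, 11.32 and 11.79 in WT and 10.38, 10.13, 10.35, 10.39 and 10.65 in CCM hearts. Its fall was 1.03 ± 0.19 (adjusted p = 0.00494, held). Pmvk, phosphomevalonate kinase of the sterol pathway, fell by 0.88 ± 0.11 (adjusted p = 8.25e-05, held). Fads3, a fatty acid desaturase, fell by 0.41 ± 0.09 (adjusted p = 0.0169), and omission of WT high fat replicate 2 or 3 or CCM high fat replicate 3 ended that call (up to adjusted p = 0.0674). Thrsp, a partner of Mid1ip1 in lipid synthesis, differed by -1.08 ± 0.28 and just missed the threshold (adjusted p = 0.0547). Npc1, which moves cholesterol out of lysosomes, read 13.70, 13.46, 13.50 and 13.65 in WT and 12.89, 12.89, 12.69, 12.75 and 12.74 in CCM hearts. It fell by 0.78 ± 0.11 (adjusted p = 0.000240, held), a further probe showed -0.75 and the remaining one -0.05. Gpcpd1, which breaks down glycerophosphocholine, fell by 0.66 ± 0.13 (adjusted p = 0.00781, held), and its other 3 probes showed -0.45 to -0.66.

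Of 26 fatty acid oxidation genes 1 (3.85%, beside 1.95% of all genes) was called. This was Ehhadh, a peroxisomal enzyme of the pathway, which fell by 0.55 ± 0.12 (adjusted p = 0.0130), and its call was lost without WT high fat replicate 3 (adjusted p = 0.0567). None of 15 fatty acid uptake, 12 pyruvate dehydrogenase, 17 TCA cycle or 19 PPAR, RXR and PGC-1 genes was called in limma. The closest of these to the threshold was Pdk1, an inhibitory kinase of pyruvate dehydrogenase (-0.39 ± 0.10, adjusted p = 0.0538). Ucp3, a mitochondrial uncoupling protein, differed by -1.04 ± 0.28 (adjusted p = 0.0744), with WT values from 6.04 to 7.68 and CCM values from 5.40 to 6.55. Hk1, a hexokinase, rose by 0.30 ± 0.08 (adjusted p = 0.0471) as the single call of 30 glycolysis and glycogen genes (3.33%, beside 1.95% of all genes). That call was lost in 17 of 19 omissions (up to adjusted p = 0.174 without WT high fat replicate 1). A pair of called glycogen genes lay outside that list and was singled out after the values were seen. Pygl, the liver form of glycogen phosphorylase, read 7.46, 7.61, 7.63 and 7.77 in WT and 8.02, 8.31, 8.37, 8.19 and 8.46 in CCM hearts. It was higher in every CCM heart, by 0.65 ± 0.10 (adjusted p = 0.000919, held). Ppp1r3b, which targets protein phosphatase 1 to glycogen, read 9.55, 10.04, 9.70 and 9.93 in WT and 9.09, 8.99, 8.91, 8.84 and 8.78 in CCM hearts. It was lower in every CCM heart (-0.88 ± 0.17, adjusted p = 0.00666, held), and its other probe showed -0.66. Uqcr10, a subunit of respiratory complex III and the brightest called gene in WT hearts, fell by 0.32 ± 0.07 (adjusted p = 0.0163), the single call of 70 respiratory chain genes (1.43%, near the share of all genes). Without WT high fat replicate 1 or 3 it was not called (adjusted p = 0.0558 and 0.0736).

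Of 8 measured ketone body genes 2 (25%, beside 1.95% of all genes) fell and 6 were not called, while 7 of the 8 had a negative difference (median -0.21). Bdh1, the mitochondrial dehydrogenase that oxidises beta-hydroxybutyrate, read 12.59, 12.70, 12.60 and 12.25 in WT and 11.42, 10.89, 11.58, 10.83 and 10.46 in CCM hearts. Every CCM heart was below every WT heart, and the fall was 2.82-fold (-1.50 ± 0.21, adjusted p = 0.000211, held). Among its other probes a bright one showed -1.62 and one found on just 5 arrays 0.26. Slc16a7, a monocarboxylate transporter, read 8.08, 7.75, 7.60 and 7.88 in WT and 7.19, 7.19, 6.87, 7.05 and 6.80 in CCM hearts, a fall of 0.81 ± 0.11 (adjusted p = 0.000233, held). Oxct1, which activates ketone bodies for oxidation, differed by -0.23 ± 0.08 (adjusted p = 0.254).

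Fah, the last enzyme of tyrosine breakdown, read 11.59, 11.84, 11.76 and 11.69 in WT and 10.81, 10.94, 10.56, 11.00 and 11.02 in CCM hearts. All CCM hearts lay below the WT range, and the fall was 0.85 ± 0.10 (adjusted p = 4.28e-05, held). Gcat, which cleaves a product of threonine into glycine and acetyl-CoA, read 10.23, 10.08, 9.97 and 10.15 in WT and 8.79, 8.76, 8.83, 8.81 and 8.93 in CCM hearts. These were narrow groups with a 2.44-fold difference (-1.29 ± 0.09, adjusted p = 3.84e-08, held). Of 18 branched-chain amino acid genes 2 (11.1%, beside 1.95% of all genes) fell and none rose (median -0.12). They were Dbt (-0.49 ± 0.09, adjusted p = 0.00445, held) and Bckdhb (-0.47 ± 0.10, adjusted p = 0.0131), both subunits of the branched-chain keto acid dehydrogenase. A second Dbt probe showed -0.30. The Bckdhb call was lost without WT high fat replicate 1 or 4 (adjusted p = 0.0647 and 0.0674). Fah, Gcat and the serine hydroxymethyltransferase Shmt1 (-0.55 ± 0.11, adjusted p = 0.0101, held) were singled out after their values were seen.

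Genes known as targets of ATF4, a factor that switches on amino acid and one-carbon metabolism under stress, were among the increases. Of 17 measured list members 5 (29.4%, beside 1.95% of all genes) rose and none fell, with a median of 0.31. Mthfd2, a mitochondrial folate enzyme, read 8.02, 8.67, 8.76 and 8.07 in WT and 9.88, 10.02, 9.80, 10.08 and 9.43 in CCM hearts. It rose 2.77-fold (1.47 ± 0.19, adjusted p = 7.80e-05, held). Trib3, a pseudokinase, read 7.82, 7.94, 8.07 and 7.78 in WT and 8.78, 8.77, 8.90, 8.61 and 8.54 in CCM hearts, a rise of 0.82 ± 0.13 (adjusted p = 0.000808, held). The other 3 calls were less stable. Atf5, itself a transcription factor, rose by 0.48 ± 0.10 (adjusted p = 0.0169), which ended without CCM high fat replicate 1 or 3 or WT high fat replicate 4 (up to adjusted p = 0.0794). Fgf21, a secreted hormone of fasting and stress, was detected on 2 of 4 WT and 5 of 5 CCM arrays and read 5.22, 5.73, 6.02 and 4.93 in WT and 6.22, 7.24, 6.28, 6.37 and 6.03 in CCM hearts. It rose by 0.95 ± 0.21 (adjusted p = 0.0172), lost without WT high fat replicate 1 or 4 (adjusted p = 0.0728 and 0.0862). Its difference was 0.21 ± 0.20 on the normal diet, and the difference between diets had an unadjusted p of 0.018 that did not survive adjustment. Asns, asparagine synthetase, rose by 0.62 ± 0.15 (adjusted p = 0.0381), with the lowest CCM heart at 7.69 and the highest WT heart at 7.78, and 8 of 19 omissions ended its call (up to adjusted p = 0.169 without WT high fat replicate 4). A second Asns probe showed 0.22. Sars, the cytosolic seryl-tRNA synthetase, fell by 1.05 ± 0.14 (adjusted p = 0.000119, held) as the single call of 17 aminoacyl-tRNA synthetases (5.88%, beside 1.95% of all genes). A second Sars probe, also detected on all arrays, showed 0.21, so the probes of this gene disagreed.

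The amino acid response element that ATF4 binds, searched as TGATGNAA on both strands, was in the promoters of 2.76% of all genes, 4 (4.26%) of the 94 higher and 7 (6.60%) of the 106 lower genes. The higher genes that hold it were Trib3, Asns, Fgf21 and Slc1a4. The lower genes that hold it were Tnnt1, Rhobtb1, Mbnl2, Car11, Adig, Fam205c and Phactr1, so more of the called holders fell than rose. The stretches of Trib3 and Asns were picked because both rose, and they do not stand for all holders. A link between the element and the direction of change was not tested. Capitals mark the motif, which in Trib3 reads as its reverse complement.
Trib3, chr2:152344011-152344086, minus strand: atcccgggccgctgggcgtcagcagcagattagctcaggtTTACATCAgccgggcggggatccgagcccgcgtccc
Asns, chr6:7693185-7693272, minus strand: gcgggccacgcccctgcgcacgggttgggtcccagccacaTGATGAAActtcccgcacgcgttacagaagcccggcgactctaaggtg

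Genes of separate routes to NAD, the electron carrier of fuel oxidation, moved in opposite directions. Nampt, the rate-limiting enzyme of salvage from nicotinamide, read 9.49, 9.14, 8.99 and 8.99 in WT and 8.11, 8.26, 7.86, 7.59 and 7.92 in CCM hearts. It was lower in all CCM hearts, by 2.30-fold (-1.20 ± 0.19, adjusted p = 0.000692, held). Nmrk2, a muscle kinase of the route from nicotinamide riboside to NAD, read 9.63, 9.85, 9.82 and 8.90 in WT and 10.72, 11.18, 11.29, 11.10 and 10.49 in CCM hearts. It was higher in all CCM hearts, by 2.65-fold (1.41 ± 0.22, adjusted p = 0.000639, held), with a second probe at 1.49. The remaining Nmrk2 probe, also detected on all 19 arrays, showed -0.21, so the probes of this gene disagreed. Nampt and Nmrk2 were the 2 calls among 17 measured NAD and sirtuin genes (11.8%, beside 1.95% of all genes).

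**Figure D4:**
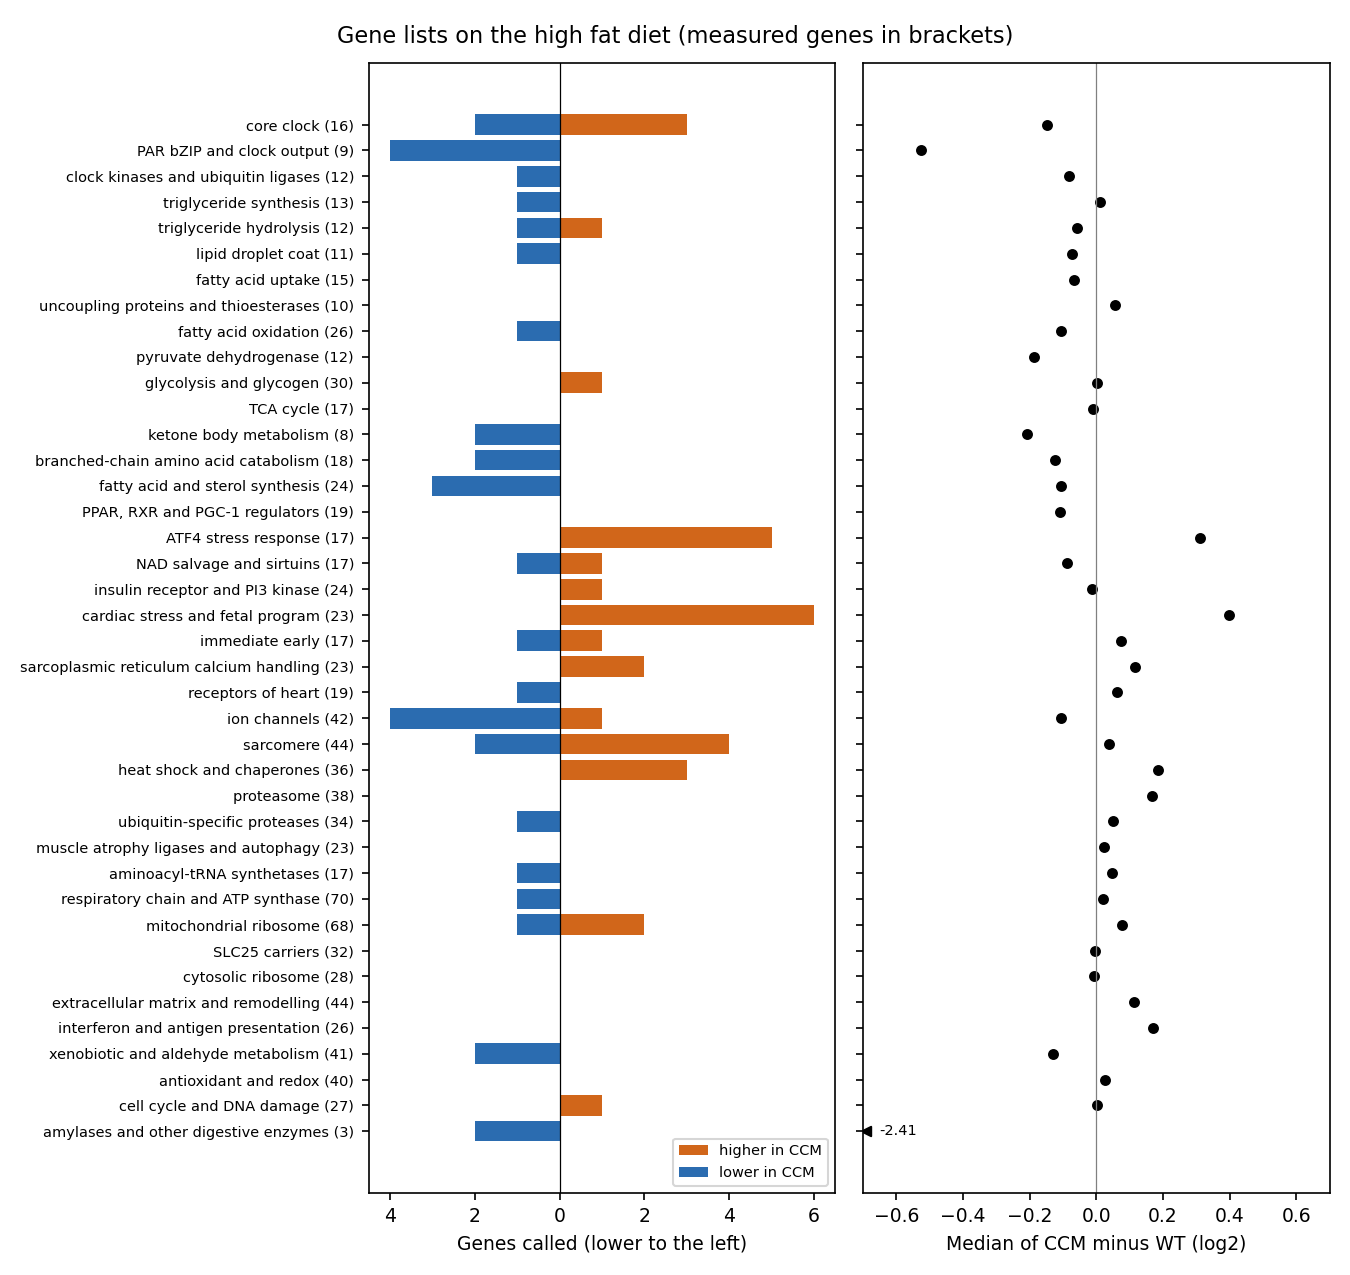
Number of genes called higher (orange, right) and lower (blue, left) in CCM hearts in each of 40 gene lists, with the number of measured genes in brackets, and the median difference of each list (log2, right panel). The cardiac stress list holds the most rises (6 of 23 genes). The amylase median of -2.41 lies beyond the axis and rests on 3 measured genes, among them Amy1 and Amy2a5, whose probes may share targets.

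Markers of cardiac stress and of the fetal gene program rose in part. Of 23 measured list members 6 (26.1%, beside 1.95% of all genes) rose and none fell, and the median was 0.40. Rcan1, a calcineurin inhibitor that is itself switched on by calcineurin, read 11.61, 11.80, 11.85 and 11.64 in WT and 12.75, 12.92, 12.90, 12.95 and 12.56 in CCM hearts. The groups were tight, and the rise was 2.13-fold (1.09 ± 0.12, adjusted p = 1.20e-05, held), with 1.82 at a second probe. Mybpc2, the fast skeletal myosin-binding protein C, rose by 0.87 ± 0.17 (adjusted p = 0.00584, held) and Xirp1, an actin-binding protein of the intercalated disc, by 0.60 ± 0.12 (adjusted p = 0.00869, held). The 3 best-known members were called less stably. Acta1, skeletal alpha-actin, read 14.51, 14.67, 14.53 and 14.11 in WT and 14.99, 15.23, 15.14, 15.20 and 15.07 in CCM hearts (0.67 ± 0.15, adjusted p = 0.0171), lost without WT high fat replicate 4 (adjusted p = 0.0863). Nppb, which encodes brain natriuretic peptide, read 13.63, 13.71, 13.58 and 13.11 in WT and 14.11, 14.27, 14.35, 14.38 and 13.91 in CCM hearts (0.70 ± 0.17, adjusted p = 0.0356), lost in 7 of 19 omissions (up to adjusted p = 0.160 without WT high fat replicate 4). Cdkn1a, the cell cycle inhibitor p21, rose by 1.19 ± 0.28 (adjusted p = 0.0302), also lost in 7 of 19 omissions (up to adjusted p = 0.141 without WT high fat replicate 4). WT high fat replicate 4 held the lowest value of its group for Acta1, Nppb and Cdkn1a.

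Contractile and calcium-handling genes moved in both directions. Of 44 sarcomere genes 4 rose and 2 fell (13.6% called, beside 1.95% of all genes, median 0.04). Of the 4 that rose, Mybpc2, Xirp1 and Acta1 are counted in the cardiac stress list too. Mybpc3, the cardiac myosin-binding protein C, read 12.64, 12.90, 12.93 and 12.74 in WT and 13.29, 13.29, 13.32, 13.36 and 13.32 in CCM hearts. It rose by 0.52 ± 0.10 (adjusted p = 0.00445, held). Tnnt1, slow skeletal troponin T, read 8.87, 8.87, 9.16 and 9.25 in WT and 8.19, 8.20, 8.11, 8.26 and 8.26 in CCM hearts, a fall of 0.84 ± 0.12 (adjusted p = 0.000246, held). Tmod4, a tropomodulin that caps thin filaments, fell by 0.84 ± 0.18 (adjusted p = 0.0117, held), and its other probes showed -0.78 and -0.92. Of 23 calcium-handling genes of the sarcoplasmic reticulum 2 rose and none fell (8.70% called, beside 1.95% of all genes, median 0.12). Mrln, which encodes myoregulin, a small inhibitor of the calcium pump, read 7.47, 7.36, 7.26 and 7.06 in WT and 9.01, 8.75, 9.04, 8.72 and 8.69 in CCM hearts. The rise was 2.94-fold (1.55 ± 0.19, adjusted p = 3.78e-05, held). Casq1, the skeletal calcium-binding calsequestrin, rose by 1.06 ± 0.21 (adjusted p = 0.00841, held), with 0.97 at a second probe. Asph, which includes the junctional protein junctin, missed the threshold (0.56 ± 0.15, adjusted p = 0.0535).

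Of 42 measured ion channel genes 4 fell and 1 rose (11.9% called, beside 1.95% of all genes, median -0.11). Ano4, a member of the anoctamin family, read 6.99, 7.22, 7.48 and 7.47 in WT and 4.90, 4.87, 5.0, 5.02 and 4.96 in CCM hearts. It was detected on 4 of 4 WT and 0 of 5 CCM arrays and was at least 3.46-fold lower (adjusted p = 2.01e-10, held), a bound not met without background correction (-1.25 log2) or in the authors' normalized values (-1.41). Its relative Ano10 fell by 1.49 ± 0.16 (adjusted p = 1.60e-05, held). Hcn2, a pacemaker channel, rose in every CCM heart, from 10.08, 10.18, 10.21 and 10.39 in WT to 11.30, 11.07, 11.46, 11.62 and 11.19 in CCM hearts (1.11 ± 0.12, adjusted p = 1.57e-05, held). Potassium channel genes were lower in 3 cases: Kcnc1 (-1.43 ± 0.24, adjusted p = 0.00187, held), Kcnn1 (-0.54 ± 0.09, adjusted p = 0.00143, held) and Kcnv2 (-0.69 ± 0.16, adjusted p = 0.0301). Kcnv2 lost its call on omission of CCM high fat replicate 1 or 3 or WT high fat replicate 3 or 4 (up to adjusted p = 0.140). Kcnj14, an inward rectifier outside the list, was detected on 0 of 4 WT and 5 of 5 CCM arrays and was at least 1.95-fold higher (adjusted p = 0.00142, held), while the same settings gave 0.74 and 0.85 log2, again under the bound. P2ry1, an ATP and ADP receptor, fell by 0.86 ± 0.13 (adjusted p = 0.000597, held) as the single call of 19 receptors (5.26%, beside 1.95% of all genes).

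Of 36 measured chaperone genes, 32 had a positive difference and 3 (8.33%, beside 1.95% of all genes) were called, all higher, with a median of 0.19 beside -0.0053 over all genes. Hspa1l, an HSP70 family member, read 7.67, 7.87, 7.67 and 7.58 in WT and 9.18, 9.34, 9.24, 9.37 and 8.88 in CCM hearts, a 2.84-fold rise (adjusted p = 7.28e-06, held). Hspb3, a small heat shock protein of muscle, rose by 0.77 ± 0.08 (adjusted p = 1.01e-05, held). Hsph1, an HSP110, rose by 0.62 ± 0.16 (adjusted p = 0.0487), and 14 of 19 omissions ended that call (up to adjusted p = 0.159 without WT high fat replicate 4). Of 38 proteasome genes 34 had a positive difference (median 0.17), yet none was called, and the one nearest the threshold was Psmd8 (0.34 ± 0.09, adjusted p = 0.0723). These counts of signs describe the lists and are no test of them. On the normal diet the median was 0.04 for the chaperone and 0.09 for the proteasome genes.

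Of 17 immediate early genes, 1 fell and 1 rose (11.8% called, beside 1.95% of all genes). Ier3, a stress-response gene, fell by 0.99 ± 0.13 (adjusted p = 0.000127, held). Egr2, a growth-induced transcription factor, read 5.37, 5.85, 5.92 and 5.76 in WT and 7.09, 7.20, 6.67, 7.10 and 5.82 in CCM hearts. CCM high fat replicate 5 lay within the WT range, the rise was 1.05 ± 0.23 (adjusted p = 0.0163), and omission of CCM high fat replicate 1 or WT high fat replicate 1 ended the call (adjusted p = 0.0524 and 0.0728). Of 24 insulin and PI3 kinase genes 1 (4.17%, beside 1.95% of all genes) was called. This was Pik3r3, a regulatory subunit of PI3 kinase, which rose by 0.52 ± 0.11 (adjusted p = 0.0161), lost in 4 of 19 omissions (up to adjusted p = 0.0659 without WT high fat replicate 4). Its relative Pik3r1 differed by -0.40 ± 0.11 (adjusted p = 0.0707). Of 68 mitochondrial ribosome genes 3 (4.41%, beside 1.95% of all genes) were called. Mrpl22 fell by 0.69 ± 0.10 (adjusted p = 0.000569, held), and Mrps34 (0.33 ± 0.07, adjusted p = 0.0185) and Mrpl54 (0.40 ± 0.10, adjusted p = 0.0456) rose. The calls of Mrps34 and Mrpl54 were lost in 3 and 12 of 19 omissions (up to adjusted p = 0.0817 and 0.185, both without WT high fat replicate 4). limma called none of 44 matrix and remodelling, 26 interferon and antigen presentation, 40 antioxidant, 32 SLC25 carrier, 28 cytosolic ribosome or 23 atrophy and autophagy genes.

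The remaining large decreases belonged to genes of varied function. Laptm4a, a lysosomal membrane protein, read 11.84, 12.25, 12.32 and 12.23 in WT and 9.11, 9.18, 9.19, 9.49 and 9.39 in CCM hearts, a 7.41-fold fall (adjusted p = 8.08e-11, held). Cyp2b10, a cytochrome P450 of drug metabolism, read 8.67, 9.59, 9.70 and 8.66 in WT and 6.56, 7.06, 5.91, 6.51 and 5.80 in CCM hearts, a 6.90-fold fall (adjusted p = 1.63e-05, held). With Gsta2, a glutathione transferase (-0.95 ± 0.20, adjusted p = 0.0111, held), it made up the 2 falls among 41 xenobiotic genes (4.88% called, beside 1.95% of all genes, median -0.13). The starch-digesting amylases Amy1 and Amy2a5 fell 5.83-fold (adjusted p = 3.87e-09) and 5.32-fold (adjusted p = 3.77e-10), both held. Probes of these near-identical neighbours, and those of the Cyp2b, Gsta, Klk1b and histone H4 families, may share targets. Amy2a5 read 12.03, 11.73, 11.81 and 12.10 in WT and 9.49, 9.88, 9.03, 9.67 and 9.47 in CCM hearts.

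Further down the list of decreases, Prxl2a, a peroxiredoxin-like protein, read 10.92, 11.01, 10.93 and 11.07 in WT and 9.39, 9.30, 9.28, 9.34 and 9.34 in CCM hearts. The animals of each group lay close together, and the fall was 3.15-fold (adjusted p = 8.08e-11, held). Rhobtb1, an atypical small GTPase and one of the brightest called genes, fell by 1.53 ± 0.15 (adjusted p = 4.13e-06, held), with -1.75 at a second probe. Rasd2, of another GTPase family, fell by 1.53 ± 0.17 (adjusted p = 1.62e-05, held). Ccn4, a matricellular protein, was detected on no CCM array and was at least 2.50-fold lower, and Sema6d, a semaphorin, at least 2.24-fold lower with a dim second probe at 0.25. The transcript 4930522O17Rik was at least 3.61-fold lower. None of these 3 bounds was met without background correction, where Ccn4, Sema6d and 4930522O17Rik differed by -0.92, -0.69 and -1.14 log2, or in the authors' normalized values (-1.04, -0.78 and -1.28). Palb2, a partner of BRCA2 in DNA repair, Lonrf1, a RING finger protein, and Plk5, a polo-like kinase, fell by 1.49, 1.49 and 1.47 log2, all held. Klk1b26, a kallikrein, fell by 1.79 ± 0.41 (adjusted p = 0.0244). One CCM heart (8.28) lay within the WT range of 7.87 to 8.70, and 7 of 19 omissions ended the call (up to adjusted p = 0.0959 without WT high fat replicate 2).

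The remaining large increases began with 4833412C05Rik, which rose by 1.88 ± 0.24 (adjusted p = 8.48e-05, held) and was detected on 3 of 4 WT and 5 of 5 CCM arrays. Slc17a7, a vesicular glutamate transporter, read 7.98, 8.82, 9.05 and 8.11 in WT and 10.67, 9.71, 10.07, 9.98 and 10.23 in CCM hearts, a 3.12-fold rise (adjusted p = 0.000225, held). Igf2bp2, an RNA-binding protein, read 9.61, 9.55, 9.28 and 9.17 in WT and 10.76, 11.05, 10.99, 10.83 and 10.89 in CCM hearts, a 2.83-fold rise (adjusted p = 4.13e-06, held). All CCM hearts lay above all WT hearts for both genes. Smaller rises that were held included the ubiquitin ligase adaptor Spsb4 (1.23 ± 0.16), the adhesion protein Cntn5 (1.20 ± 0.11), the tendon transcription factor Scx (1.16 ± 0.16), the magnesium transporter family member Slc41a3 (1.13 ± 0.16), the TWEAK receptor Tnfrsf12a (1.07 ± 0.19) and the cGMP-dependent kinase Prkg1 (0.89 ± 0.11). Tspan9 rose by 0.96 ± 0.22 (adjusted p = 0.0251), and its call was lost in 6 of 19 omissions (up to adjusted p = 0.0985 without WT high fat replicate 4).

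Among the brightest called genes in WT hearts were also Saraf, a regulator of store-operated calcium entry (-0.41 ± 0.10, adjusted p = 0.0308), Acta2, smooth muscle actin (-0.69 ± 0.17, adjusted p = 0.0372), and Mbnl2, a splicing regulator (-0.37 ± 0.08, adjusted p = 0.0196). A second Saraf probe, detected on all 19 arrays, showed -0.22. Acta2 is the called member of the smooth muscle markers whose summed level is given above, and its other probes showed -0.76 and -0.98. The Saraf and Acta2 calls each ended in 7 of 19 omissions, with the highest adjusted p at 0.0996 for Saraf (WT high fat replicate 4 left out) and 0.158 for Acta2 (WT high fat replicate 2 left out). The Mbnl2 call ended in 4 (up to adjusted p = 0.0928 without WT high fat replicate 1).

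Called genes that are neighbours in the genome were looked up by gene order on GRCm38.p6. Among 11554 adjacent pairs of measured genes, 6 had both members called, and in each of them both members moved the same way. Of the 11575 genes placed, 261 (2.25%) were called, and that share alone gives 5.87 such pairs, so the count was at this level. Of these, 4 pairs fell: Amy1 with Amy2a5, Dbp with Car11, Npc1 with Rmc1, and Gpcpd1 with Shld1. Car11, a carbonic anhydrase-related gene, fell by 0.55 ± 0.13 (adjusted p = 0.0333) and overlapped between genotypes, and 6 of 19 omissions ended its call (up to adjusted p = 0.142 without WT high fat replicate 4). Rmc1, a regulator of lysosome traffic, fell by 0.57 ± 0.12 (adjusted p = 0.0122), lost without WT high fat replicate 3 or 4 (adjusted p = 0.0554 and 0.0569). Shld1, a shieldin subunit of DNA repair, fell by 1.21 ± 0.25 (adjusted p = 0.0101, held). The 2 pairs that rose were Mrps34 with the nucleoside diphosphate kinase Nme3 (0.59 ± 0.10, adjusted p = 0.00257, held) and the histone genes H4c11 and H4c12 (0.57 ± 0.13 and 0.73 ± 0.17). The calls of H4c11 and H4c12 were lost in 4 and 6 of 19 omissions (up to adjusted p = 0.104 without WT high fat replicate 2 and 0.123 without WT high fat replicate 4).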

How the data were processed

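Hearts of 19 mice were measured on 1 Illumina bead array each. The authors deposited an average bead intensity, not normalized between arrays, and a detection p-value per probe, per the file headers; a table of their normalized intensities served as an alternative. Per the submitters' processing notes, BeadStudio 3 was used. Background correction and quantile normalization used neqc (limma 3.58.1, R 4.3.3, offset 16). Kept were 19840 of 46643 probes, each detected (p under 0.05) on 4 or more arrays, and the brightest stood for its gene. Names came from the files, updated through RefSeq tables. A model of 4 group means was fitted with lmFit and eBayes over all 19 arrays (15 residual degrees of freedom) and tested on simulated data. A fold against a group with no detected array is a lower bound, taken from the lowest detected signals. The number of arrays and signal over background limit the precision. Members, gene lists and tests were chosen with earlier results of these data known. Genes named were the 25 largest increases and decreases with official symbols, the 15 brightest calls, called list members with up to 3 further members of smallest p, the core clock, the 5 smallest interaction p and called neighbours; not all are printed, and some results are not reported here.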

Additional observations from a re-analysis of the deposited data

Results flagged for a closer look

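In 9 of the 256 groups examined (the named genes and both array measures, in each genotype on the high fat diet), 1 animal stood far from the others of its group, its gap to the nearest being a large share of the whole range. Chance gives about 1 such group in 20, and the 9 were fewer than that. The WT heart of replicate 1 read 7.71 for 4930522O17Rik (others 7.19 to 7.26) and 8.39 for Lonrf3 (others 7.73 to 7.78). WT replicate 2 read 11.83 for Pik3r1 (others 11.67 to 11.69). WT replicate 3 read 6.08 for Rorb (others 5.57 to 5.60) and 11.26 for Xirp1 (others 11.33 and 11.34). WT replicate 4 read 10.17 for Pdk1 (others 10.36 to 10.39) and 13.59 for Saraf (others 13.52 and 13.53). CCM replicate 2 read 9.94 for Coq10b (others 9.38 to 9.54) and 7.24 for Fgf21 (others 6.03 to 6.37).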

How the results depend on the processing

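The number of called genes, 288, ranged from 209 to 317 over the 19 fits that each left out 1 animal, with 87 to 135 higher, 122 to 182 lower and 71 to 79 changed at least 2-fold. It fell to 90 (33 higher and 57 lower) in animals numbered under 20 alone and to 48 (13 higher and 35 lower, 36 at least 2-fold) in those numbered over 20, to 180 (68 higher) on leaving out the 3 dimmest arrays, and to 172 (66 higher and 106 lower) without CCM high fat replicates 1 and 2, a setting chosen after seeing the data; these fits held fewer samples. With a block on those animal numbers 395 genes were called, including all 288. Genes changed at least 2-fold numbered 36 without background correction and 41 in the authors' normalized values. The number of genes whose difference depended on diet was 0 in each setting that could test it. Of 126 genes named, 3 turned in sign under some setting, none of them called: Bhlhe40 (0.14 over animal 20, and -0.15 to 0.066 without single animals, positive at 0.015 without CCM high fat replicate 2), Npas2 (0.023 with a constant shift, 0.020 over animal 20, and -0.14 to 0.026 without single animals) and Per1 (-0.20 to 0.095 without single animals, positive at 0.018 without WT high fat replicate 1). Of 107 named calls, 74 held in every fit without 1 animal. No paired analysis was possible because replicate numbers only name the animals. The log2 difference shrank by over 1.5 times in 29 of these 107 without background correction and in 22 in the authors' normalized values. Signal over background limits the folds of dim genes.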
